A study of Mus musculus with 12 samples.

Results

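Rank, its ligand, its decoy and the proteins that carry its signal were followed as 10 genes through sorted mammary epithelial cells of the mouse. The genes were Tnfrsf11a (the receptor Rank), Tnfsf11 (the ligand Rankl), Tnfrsf11b (the decoy osteoprotegerin), the adaptor genes Traf1, Traf2, Traf3, Traf5 and Traf6, Map3k14 (the kinase NIK) and Nfatc1 (a transcription factor). They were picked by symbol, with earlier results of these data known, and are 10 of the 53735 symbols in the deposited count table. All 10 were among the 18236 genes that passed a filter on low counts.

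RNA sequencing libraries came from mammary glands taken apart with enzymes, from which live cells were sorted on the surface proteins CD24 and CD49f. The 12 libraries form 4 groups of 3: MMTVRANK luminal, WT luminal, MMTVRANK basal and WT basal. In MMTVRANK mice a promoter of the mouse mammary tumour virus, which is active in mammary epithelium and responds to steroid hormones, drives Rank. WT mice carry no such transgene. The labels used here give no strain, age, parity, transgenic line or number of animals per library. Whether the replicates came from separate animals is not given either, and every p-value thus measures the spread between these libraries, which may be technical.

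Total counts lay between 12459547 and 15069578 per library. Values are CPM, counts scaled to the library size with TMM factors. Markers of the sorted populations followed the titles: 15 luminal markers summed to between 9000 and 24700 CPM in the 6 luminal libraries, and to between 564 and 853 CPM in the 6 basal libraries. Within luminal cells these sums did not overlap between genotypes, at 15200, 13600 and 9000 CPM in MMTVRANK libraries, against 24700, 19000 and 17500 CPM in WT libraries. Of the 15 markers 3 had a positive log2 fold change there, and the median was −0.55, against 0.03 over all genes tested. In basal cells 1 of the 15 was positive (median −0.57). None passed, and the part of this shift in the genotype differences was not tested. Summed over 12 basal and myoepithelial markers, luminal libraries held between 283 and 783 CPM and basal libraries between 24900 and 33000 CPM. For the 2 WT replicate 2 libraries, the title and the cell subtype label name opposite populations. By their markers both lie with their titles, which were used here. The receptor itself was high in both of these libraries, so results that rest on them are given with and without them.

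Rankl is made by hormone-sensing luminal cells, in which progesterone raises it, and it acts on Rank-bearing neighbours to drive their growth in pregnancy. Rank has no enzyme activity of its own. It binds TRAF proteins, which activate NF-kB through the IKK kinases, or through NIK, p100 (Nfkb2) and RelB, and which also activate MAP kinases. Osteoprotegerin is a secreted decoy that binds Rankl and keeps it from the receptor. In osteoclasts, where the pathway was first worked out, its signal ends in induction of the transcription factor NFATc1.

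Start site sequences of 8 of the 10 genes were found in a RefSeq promoter table for GRCm38.p6, each running from 250 bases before the start to 50 bases after it. The sequences of 4 are shown: those of the receptor and the ligand, and those of Traf3 and Traf5, the adaptor with the most even group means and the one that differed most between WT populations. The windows are chr1:105780473-105780772 on the plus strand for Tnfrsf11a, chr14:78307994-78308293 on the minus strand for Tnfsf11, chr12:111166120-111166419 on the plus strand for Traf3 and chr1:192092550-192092849 on the minus strand for Traf5, each printed 5′ to 3′ along its gene. Capitals mark matches to the GC box GGGCGG, the TATA motif TATAAA and the NF-kB consensus, read on both strands.
Tnfrsf11a: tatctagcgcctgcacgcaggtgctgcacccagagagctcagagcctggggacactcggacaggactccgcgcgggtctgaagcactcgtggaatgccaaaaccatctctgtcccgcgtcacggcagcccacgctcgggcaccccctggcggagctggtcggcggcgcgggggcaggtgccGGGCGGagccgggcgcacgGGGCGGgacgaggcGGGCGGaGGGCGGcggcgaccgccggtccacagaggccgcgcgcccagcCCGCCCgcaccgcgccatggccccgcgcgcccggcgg
Tnfsf11: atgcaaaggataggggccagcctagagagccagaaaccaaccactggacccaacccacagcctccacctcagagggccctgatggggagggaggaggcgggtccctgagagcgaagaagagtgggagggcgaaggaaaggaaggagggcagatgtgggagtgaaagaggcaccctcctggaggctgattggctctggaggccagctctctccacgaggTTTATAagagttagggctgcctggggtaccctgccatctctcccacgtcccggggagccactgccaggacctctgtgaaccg
Traf3: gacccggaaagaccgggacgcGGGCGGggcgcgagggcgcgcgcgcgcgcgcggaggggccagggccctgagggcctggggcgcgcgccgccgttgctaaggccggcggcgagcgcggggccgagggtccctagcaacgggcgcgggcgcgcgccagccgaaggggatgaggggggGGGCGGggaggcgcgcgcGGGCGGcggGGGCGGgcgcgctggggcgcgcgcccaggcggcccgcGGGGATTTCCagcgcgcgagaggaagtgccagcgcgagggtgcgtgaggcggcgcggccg
Traf5: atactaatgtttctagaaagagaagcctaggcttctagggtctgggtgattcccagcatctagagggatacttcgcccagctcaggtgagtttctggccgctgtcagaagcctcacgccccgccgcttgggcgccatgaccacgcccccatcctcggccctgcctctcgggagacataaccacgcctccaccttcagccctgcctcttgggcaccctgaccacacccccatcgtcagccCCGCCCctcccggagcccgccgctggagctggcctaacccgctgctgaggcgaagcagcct
The Tnfrsf11a window holds 5 GC boxes and 76.7% G or C, against a median of 52.7% over all 32851 promoters of the table. The Tnfsf11 window holds no GC box and 1 TATA match, on the strand opposite to the one printed, with 61.7% G or C. The Traf3 window was the richest of the 8 at 84.0% and held 4 GC boxes and the 1 NF-kB match found among the 8 genes, at position 241 of the window. Traf5 held 1 GC box and 63.7% G or C. Over the 8 genes, 6 had a GC box, a motif found in 35.7% of all promoters. The TATA motif is in 13.6% of all promoters and the NF-kB consensus in 8.46%. The STAT motif TTCNNNGAA (8.3% of all promoters) and the AP-1 motif TGANTCA (7.81%) had no match in the 8 windows. In MMTVRANK mice the transgene's transcripts start at the viral promoter and not at the Tnfrsf11a window.

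Between populations, 6 of the 10 genes passed in MMTVRANK (edgeR quasi-likelihood test, adjusted p under 0.05), where 33.2% of all genes tested did. Traf1, Traf2 and Traf6 were higher in luminal than in basal cells, as were 16.1% of all genes tested, and Tnfrsf11b, Traf5 and Nfatc1 were lower, as were 17% of all genes tested. In WT, 5 of the 10 passed, where 38.1% of all genes tested did: Traf2 and Traf6 were higher (18% of all genes) and Tnfrsf11b, Traf5 and Nfatc1 lower (20% of all genes) in luminal cells. The genes called were those whose populations did not overlap, which held for 54.5% of all genes tested in MMTVRANK and 46.1% in WT. Over the 10 genes the median log2 difference was 0.10 in MMTVRANK, against 0.05 over all genes tested, and −0.28 in WT, against −0.07 over all genes tested.

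For genotype, MMTVRANK against WT, 0 of the 10 genes passed in luminal cells, where 0.252% of all genes tested did (46 of 18236). Of the 10, 4 had an unadjusted p under 0.05 (Tnfrsf11a, Tnfrsf11b, Traf1 and Traf5), as did 12% of all genes tested. Tnfrsf11a and Traf5 did not overlap between genotypes, which held for 16.9% of all genes tested. DESeq2 called 2 of the 10 (Tnfrsf11b and Traf5) and 5.1% of the genes to which it gave an adjusted p, and limma-voom called 0 of the 10 and 0.159% of all genes. The 10 genes had a median log2 fold change of 0.16, against 0.03 over all genes tested. In basal cells 0 of the 10 passed, as 0.00548% of all genes tested did, and 0 had an unadjusted p under 0.05 (5.41% of all genes). Traf5 alone did not overlap there, which held for 11.1% of all genes tested. In basal cells DESeq2 called 0 of the 10 and 0.321% of its genes, and limma-voom called 0 of the 10 and 0% of all genes. For the difference of the genotype effects, 0 of the 10 passed (0.00548% of all genes tested), 2 had an unadjusted p under 0.05 (Tnfrsf11b and Traf1; 7.73% of all genes), and 0 were called by DESeq2 (0.716% of its genes) or limma-voom (0% of all genes).

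**Figure D1:**
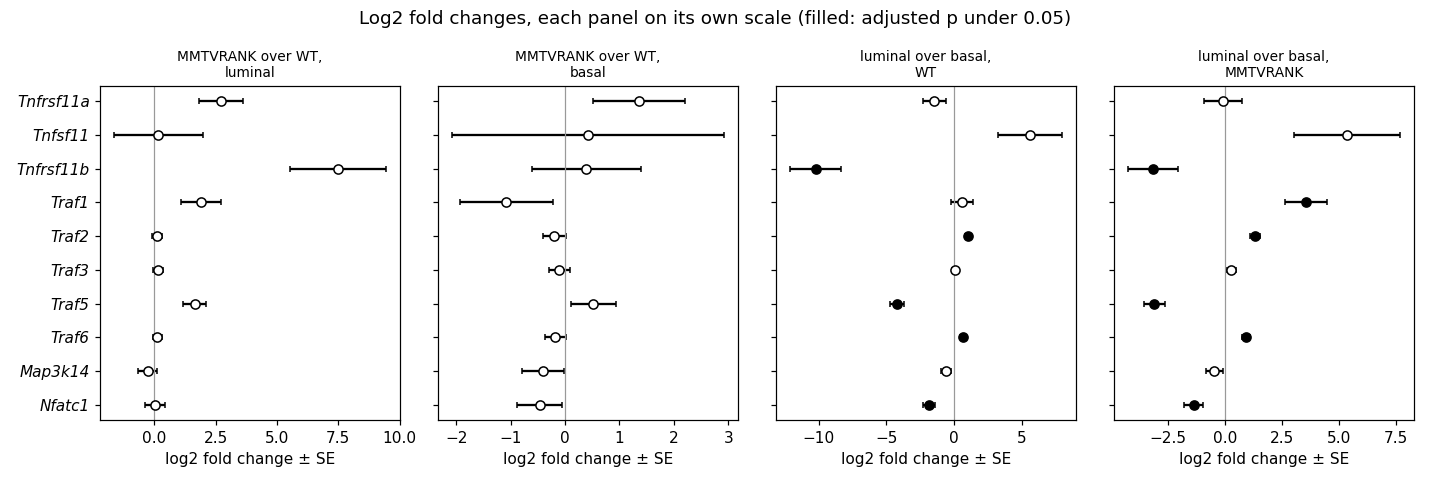
Log2 fold change of the 10 genes in 4 comparisons, with bars of ±1 SE and filled points for an adjusted p under 0.05 (edgeR quasi-likelihood test, 3 libraries per group); each panel has its own scale. No point is filled in the 2 genotype panels, 5 are in WT luminal over basal and 6 in MMTVRANK luminal over basal.

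The plus-strand gene Tnfrsf11a spans bases 105780718 to 105847981 of chromosome 1 (GRCm38.p6, as are all positions given) and has a summed exon length of 5985 bases. Its counts do not separate transcripts of the transgene from those of the native gene. In luminal cells it stood at 319, 156 and 238 CPM in MMTVRANK libraries 1, 2 and 3, against 6.36, 90.8 and 9.91 CPM in WT libraries 1, 2 and 3. All MMTVRANK luminal libraries lay above all WT luminal libraries, and the library labelled WT luminal replicate 2 stood far above the other WT luminal libraries. In basal cells it stood at 415, 129 and 218 CPM in MMTVRANK libraries, against 73.7, 158 and 65.3 CPM in WT libraries. Here the genotypes overlapped, with the library labelled WT basal replicate 2 above MMTVRANK basal replicate 2.

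The log2 fold change of Tnfrsf11a, MMTVRANK over WT, was 2.74 (SE 0.89) in luminal and 1.36 (SE 0.85) in basal cells. Neither passed (edgeR quasi-likelihood test with p-values adjusted after Benjamini-Hochberg over all genes tested, adjusted p = 0.224 and 0.977). Without both WT replicate 2 libraries the luminal value was 4.87 and the basal value 1.88. These libraries were doubted for their labels, but they are also the highest WT libraries in this gene, so that leaving them out raises the value by construction and no call is read from it. The difference between the genotype effects in the 2 populations was 1.38 (SE 1.19, adjusted p = 0.856) with all libraries.

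The difference of the receptor between WT populations also turned on those libraries. In WT cells the log2 difference of luminal from basal was −1.47 (SE 0.86) and did not pass (adjusted p = 0.206). With limma-voom and all libraries it was −2.36 and passed (adjusted p = 0.0292). With WT luminal replicate 2 as labelled left out it was −3.59, and with both WT replicate 2 libraries left out −3.08. As above, the luminal library left out was the highest of its group in this gene, and no call is read from these values. In MMTVRANK cells the populations stood at 238 ± 81.9 CPM (luminal) and 254 ± 146 CPM (basal; SD, n = 3 each), a log2 difference of −0.10 (SE 0.83, adjusted p = 0.946). That small difference changed sign without MMTVRANK luminal replicate 2 (0.14) or without MMTVRANK basal replicate 1 (0.46).

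**Figure D2:**
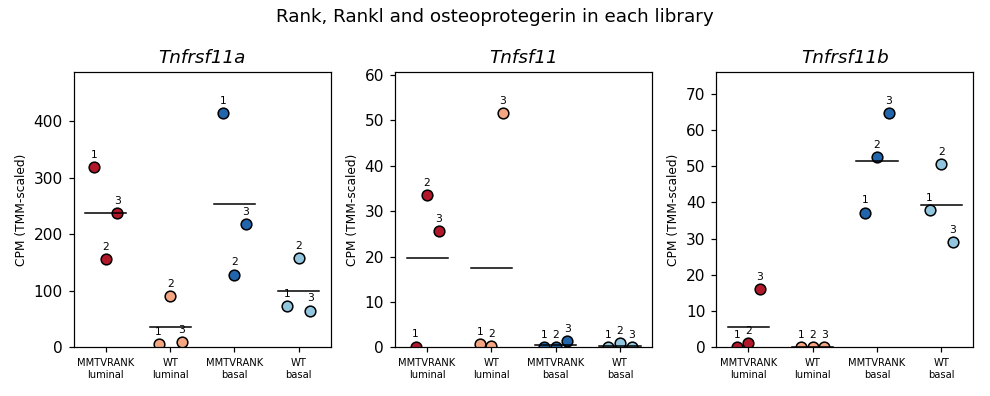
Level of Rank (Tnfrsf11a), Rankl (Tnfsf11) and osteoprotegerin (Tnfrsf11b) in each of the 12 libraries, in TMM-scaled CPM on linear axes from 0; points are libraries with their replicate numbers and lines are group means. Receptor values of the libraries labelled WT replicate 2 (90.8 CPM luminal, 158 CPM basal) stand above the other WT libraries of their population, ligand counts come from 3 of the 6 luminal libraries for the most part, and the decoy is at 29.1 CPM or more in every basal library.

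Tnfsf11, on chromosome 14 from 78277445 to 78308043 on the minus strand, was present at substantial levels in only 3 of the 12 libraries. In luminal cells it stood at 0.204, 33.5 and 25.6 CPM in MMTVRANK libraries 1, 2 and 3 (3, 524 and 437 counts), against 0.823, 0.213 and 51.6 CPM in WT libraries (11, 3 and 812 counts). MMTVRANK luminal replicates 2 and 3 and WT luminal replicate 3 were high, and the other luminal libraries held 11 counts or fewer. Basal levels were 0, 0 and 1.41 CPM in MMTVRANK libraries (18 counts in replicate 3), against 0, 1.01 and 0 CPM in WT libraries (14 counts in replicate 2). In 4 of the 6 basal libraries no count was seen, which at this depth allows up to 3 counts, or between 0.227 and 0.257 CPM.

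Within a genotype, Tnfsf11 differed between luminal libraries by 164 times in MMTVRANK and by 242 times in WT, the widest spread of the genes with a count in every library of a group. The genotypes overlapped in both populations. Its log2 fold change, MMTVRANK over WT, was 0.17 in luminal cells (SE 1.81, adjusted p = 0.998) and 0.42 in basal cells (SE 2.5, adjusted p = 1). The sign of the luminal value turned in 4 of the 12 fits that left out 1 library. Luminal over basal, the value was 5.36 (SE 2.32) in MMTVRANK and 5.61 (SE 2.37) in WT cells, and neither passed (adjusted p = 0.102 and 0.0857).

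Genes that sense the hormones upstream of Rankl did not share this spread. The progesterone receptor gene Pgr stood at 357, 288 and 63 CPM in MMTVRANK luminal libraries, against 833, 380 and 580 CPM in WT luminal libraries. The prolactin receptor gene Prlr stood at 2340, 2010 and 791 CPM in MMTVRANK luminal libraries, against 4710, 2580 and 3520 CPM in WT luminal libraries. Both receptor genes were well expressed in the 3 luminal libraries with little Tnfsf11. MMTVRANK luminal replicate 3, which had Tnfsf11, was the lowest in both. The part of hormones or of their receptors in the Tnfsf11 level was not tested. T cells also make Rankl. Summed over 18 leukocyte markers, MMTVRANK luminal libraries held 6.06, 5.11 and 355 CPM, and WT luminal libraries 6.81, 22.6 and 31.3 CPM. MMTVRANK luminal replicate 2, at 33.5 CPM of Tnfsf11, had the lowest leukocyte sum, with 8 of the 18 markers at 0. The part of leukocytes in the Tnfsf11 level of MMTVRANK luminal replicate 3 was not tested.

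**Figure D3:**
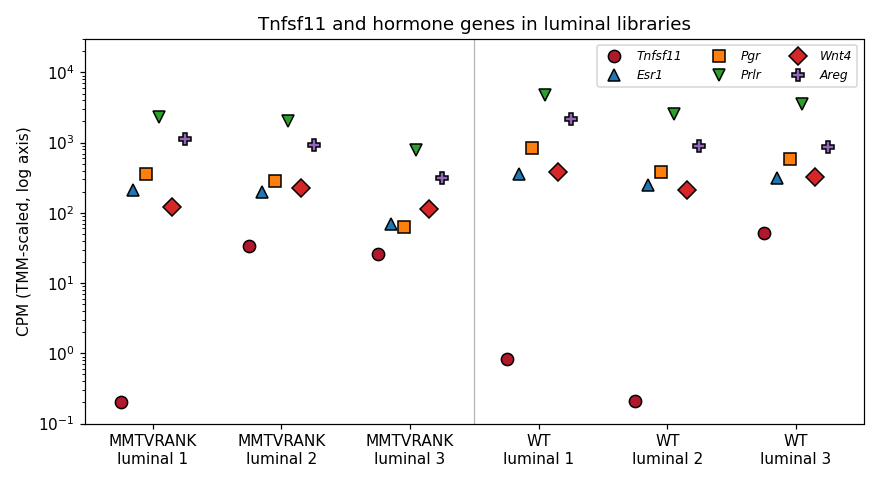
Tnfsf11 beside 5 genes of the hormone list (Esr1, Pgr, Prlr, Wnt4 and Areg) in the 6 luminal libraries, in TMM-scaled CPM on a log axis; each symbol is 1 gene in 1 library, and symbols are shifted sideways so that they do not hide each other. Tnfsf11 lies under 1 CPM in MMTVRANK luminal 1, WT luminal 1 and WT luminal 2 and between 25.6 and 51.6 CPM in the others, while Prlr stays between 791 and 4710 CPM.

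A list of 12 genes that feed into Rankl or answer it in the mammary gland held none that passed for genotype in either population, where the 2 with the smallest p in luminal cells were Rspo1 and Pgr. Rspo1, a secreted Wnt amplifier, stood at 83, 206 and 490 CPM in MMTVRANK luminal libraries, against 1.2, 50.1 and 42.5 CPM in WT luminal libraries. Its log2 fold change was 3.05 (SE 1.05, adjusted p = 0.25), with no overlap between the genotypes, which held for 16.9% of all genes tested. Pgr had −1.34 (SE 0.51, adjusted p = 0.302). In luminal cells the list's median was −0.49, against −0.55 for the luminal markers. Esr1, Pgr, Prlr and Elf5 are in both lists, so neither their medians nor their differences between populations are independent. The part of the luminal marker shift in the list's median was not tested. In basal cells Prlr had −1.21 (SE 0.55) and Wnt4, a Wnt ligand under progesterone control, had −1.25 (SE 0.57), both at adjusted p = 0.901. Of the 12 genes, 11 were higher in luminal than in basal cells in MMTVRANK and 10 in WT, as were 16.1% and 18% of all genes tested. In MMTVRANK cells the log2 differences were 7.54 for Prlr, 7.72 for Cited1 (a cofactor of the oestrogen receptor), 5.18 for Wnt4 and 7.64 for Areg (the growth factor amphiregulin), and in WT cells 7.40 for Prlr, 6.90 for Cited1, 4.93 for Wnt4 and 4.28 for Pgr. The list's median was 4.12 in MMTVRANK and 4.11 in WT, against 0.05 and −0.07 over all genes tested.

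Tnfrsf11b, on chromosome 15 from 54250619 to 54278484 on the minus strand, was expressed in every basal library and in few luminal ones. In luminal cells it stood at 0, 1.21 and 16 CPM in MMTVRANK libraries (0, 19 and 273 counts), against 0, 0.0709 and 0 CPM in WT libraries (0, 1 and 0 counts). Basal libraries had 37.2, 52.4 and 64.6 CPM in MMTVRANK, against 37.9, 50.6 and 29.1 CPM in WT. Every basal library lay above every luminal library, and among the luminal libraries MMTVRANK replicate 3 alone held more than 19 counts.

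In WT cells Tnfrsf11b was lower in luminal than in basal cells, with 1 count in all luminal libraries against 1532 in the basal libraries. That is a ratio of 0.000582 (95% counting interval 1.47e-05 to 0.00325) after scaling, and the adjusted p was 0.00154. In MMTVRANK cells it was also lower in luminal cells, by a log2 difference of −3.15 (SE 1.10, adjusted p = 0.0474). This call ended in 10 of the 12 fits that left out 1 library, at adjusted p between 0.0569 and 0.15, with DESeq2 (adjusted p = 0.0803), with only the groups compared (adjusted p = 0.0906) and without both WT replicate 2 libraries (adjusted p = 0.0886). Without MMTVRANK luminal replicate 3 the value was −6.35 (adjusted p = 0.000259).

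Between genotypes, luminal Tnfrsf11b had 292 counts in MMTVRANK and 1 in WT, a ratio of 266 with a counting interval of 47.4 to 10500 that covers counting error only. The groups overlapped, since MMTVRANK luminal replicate 1 held no count, and the log2 fold change of 7.49 (SE 1.96), which rests on a prior count, did not pass (adjusted p = 0.141). DESeq2 called it (adjusted p = 0.00347) and limma-voom did not (4.26, adjusted p = 0.563). Without MMTVRANK luminal replicate 3 it was 4.24 (adjusted p = 0.479), and without MMTVRANK luminal replicate 1 it was 8.03 and passed (adjusted p = 0.0432). In basal cells the value was 0.39 (SE 1.00, adjusted p = 1), and the difference of the genotype effects was 7.10 (SE 2.34, adjusted p = 0.531).

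Osteoprotegerin is a gene of basal cells here, and the luminal libraries differ in basal markers. These summed to 390, 492 and 783 CPM in MMTVRANK luminal libraries, against 283, 569 and 498 CPM in WT luminal libraries. MMTVRANK luminal replicate 3 was the highest in both quantities, while WT luminal replicates 2 and 3 had higher basal sums than MMTVRANK luminal replicate 2, with 1 and 0 counts of Tnfrsf11b against its 19. In such sorted bulk libraries, fewer cells of a type and less RNA per cell cannot be told apart. Gene by gene, 11 of the 12 basal markers had a positive log2 fold change, MMTVRANK over WT, in luminal cells, with a median of 1.14, against 0.03 over all genes tested. Of these 12, 6 had an unadjusted p under 0.05, as did 12% of all genes tested. None of the 12 passed, where 0.252% of all genes tested did. The part of basal cells in the luminal Tnfrsf11b level was not tested.

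By a measure of likeness over the 12 libraries (root mean square difference of log2 CPM centred on each gene's mean), the genes nearest to Tnfrsf11a among 11128 candidates were E2f7 (0.73), Troap (0.77) and Espl1 (0.81), where the median gene had 1.87. E2f7, a transcription factor of the cell cycle, stood at 12.7, 6.46 and 12.9 CPM in MMTVRANK luminal libraries, against 0.674, 4.75 and 0.508 CPM in WT luminal libraries. In basal cells E2f7 stood at 13, 5.14 and 5.88 CPM in MMTVRANK libraries, against 12.1, 10.9 and 5.56 CPM in WT libraries. Like Tnfrsf11a, it was higher in the library labelled WT luminal replicate 2 than in the other WT luminal libraries, but WT basal replicate 2 was not the highest WT basal library. Troap stood at 0.674, 2.62 and 0.381 CPM in WT luminal libraries and at 2.86, 6.27 and 0.77 CPM in WT basal libraries. Espl1 had 1.72, 6.88 and 0.889 CPM in WT luminal libraries and 7.04, 17.9 and 2.4 CPM in WT basal libraries. In both Troap and Espl1, as in Tnfrsf11a, replicate 2 was the highest WT library of each population. E2f7, Troap and Espl1 were picked for likeness over these same 12 libraries. What they share with Tnfrsf11a thus follows in part from that choice, and nothing about the WT replicate 2 libraries is read from it. Tnfsf11 had no near neighbour: Fcgbp (2.01), Spns3 (2.15) and Klk10 (2.36) were closest, against a median of 3.76. Tnfrsf11b was nearest to Camk4 (1.10), Ntng2 (1.23) and Gypc (1.29), against a median of 4.58. Camk4, a calcium-dependent kinase gene, stood at 0.749, 12.7 and 31.3 CPM in MMTVRANK luminal libraries, against 0.299, 0.709 and 0.635 CPM in WT luminal libraries, and at 163, 161 and 175 CPM in MMTVRANK basal libraries, against 120, 171 and 198 CPM in WT basal libraries.

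Among the adaptors, Traf2, Traf3 and Traf6 were expressed at 14 CPM or more in every library, with Traf2 and Traf6 higher in luminal cells. Traf5 was mainly a basal gene, and Traf1 was the lowest of the adaptors in basal cells and Traf5 in luminal cells. TRAF2 and TRAF5 carry signals from many TNF receptors to NF-kB and JNK. TRAF3 holds NIK at a low level by bringing it to cellular inhibitors of apoptosis. TRAF6 is the adaptor that Rank cannot do without in osteoclasts. TRAF1, itself an NF-kB target, lacks the RING domain of the others.

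Traf5 (chromosome 1, 191997205 to 192092559, minus strand) stood at 3.13, 4.03 and 5.27 CPM in MMTVRANK luminal libraries, against 1.2, 2.41 and 0.381 CPM in WT luminal libraries. Among basal libraries it stood at 32.4, 39.5 and 34.8 CPM in MMTVRANK libraries, against 20.4, 30.9 and 23.4 CPM in WT libraries. Every MMTVRANK library lay above every WT library of the same population, and every basal library lay above every luminal one. Traf5 was lower in luminal than in basal cells by a log2 difference of −3.10 in MMTVRANK (SE 0.45, adjusted p = 0.00021) and −4.23 in WT (SE 0.49, adjusted p = 3.58e-05).

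The genotype differences of Traf5 did not pass, at a log2 fold change of 1.65 in luminal cells (SE 0.46, adjusted p = 0.155) and 0.51 in basal cells (SE 0.41, adjusted p = 1). DESeq2 called the luminal difference at 1.59 (adjusted p = 0.0187). Leaving out the library labelled WT luminal replicate 2 gave 2.41 (adjusted p = 0.0578), and leaving out WT luminal replicate 3 gave 1.15 (adjusted p = 0.27). The difference of the genotype effects was 1.13 (SE 0.62, adjusted p = 0.706). In luminal cells the basal markers also had mostly positive log2 fold changes for genotype (11 of 12, median 1.14). By library, MMTVRANK luminal replicate 3 was the highest in Traf5 and in the basal marker sum (783 CPM). WT luminal replicate 3, the lowest in Traf5, had a basal sum of 498 CPM, against 390 CPM in MMTVRANK luminal replicate 1. The part of basal cells in the luminal difference of Traf5 was not tested. Its exons share 65 bases with Mir3473c on the same strand and 205 bases with the gene model WI1-1003N17.2 on the opposite strand, so some of its reads may be assigned elsewhere or come from the other strand.

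Traf1 (chromosome 2, 34941750 to 34961772, minus strand) stood at 5.11, 17.2 and 33.3 CPM in MMTVRANK luminal libraries, against 5.46, 4.97 and 4.38 CPM in WT luminal libraries. The basal values were 1.13, 2.95 and 0.627 CPM in MMTVRANK libraries, against 2.94, 0.504 and 6.59 CPM in WT libraries. WT luminal libraries were close together, MMTVRANK luminal replicates 2 and 3 lay above them, and replicate 1 lay among them. In MMTVRANK cells Traf1 was higher in luminal than in basal cells by a log2 difference of 3.56 (SE 0.90, adjusted p = 0.00947), or 2.82 without MMTVRANK luminal replicate 3 (adjusted p = 0.0316). In WT cells the difference was 0.57 (SE 0.82, adjusted p = 0.629).

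Between genotypes Traf1 had a log2 fold change of 1.91 in luminal cells (SE 0.83, adjusted p = 0.383), or 1.13 without MMTVRANK luminal replicate 3, and −1.08 in basal cells (SE 0.86, adjusted p = 1). The difference of these effects was 2.99 (SE 1.19) and did not pass (adjusted p = 0.596). Leukocytes express TRAF1. MMTVRANK luminal replicate 3, the highest in Traf1, also had the highest leukocyte marker sum (355 CPM, none of the 18 markers at 0). MMTVRANK luminal replicate 2 had 17.2 CPM of Traf1 at a leukocyte sum of 5.11 CPM, and MMTVRANK basal replicate 3 had 0.627 CPM at a sum of 177 CPM. The part of leukocytes in the level of Traf1 was not tested.

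Traf2 (chromosome 2, 25517982 to 25546940, minus strand) stood at 32.3, 42.8 and 43.5 CPM in MMTVRANK luminal libraries, against 36.1, 36.7 and 36.5 CPM in WT luminal libraries. In basal cells it stood at 14.8, 14.4 and 18.1 CPM in MMTVRANK libraries, against 17.9, 14 and 22.4 CPM in WT libraries. Genotypes overlapped and populations did not. Traf2 was higher in luminal than in basal cells, by a log2 difference of 1.32 in MMTVRANK (SE 0.21, adjusted p = 0.000379) and 1.01 in WT (SE 0.21, adjusted p = 0.00224).

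Traf6 (chromosome 2, 101678429 to 101701669, plus strand) stood at 38.8, 42.8 and 49.7 CPM in MMTVRANK luminal libraries, against 40.9, 33.3 and 46.1 CPM in WT luminal libraries. Basal libraries held 21.7, 21.4 and 25.5 CPM in MMTVRANK libraries, against 30.4, 23.8 and 23.4 CPM in WT libraries. Again each luminal library lay above each basal library of its genotype. The log2 difference, luminal over basal, was 0.94 in MMTVRANK (SE 0.19, adjusted p = 0.0021) and 0.63 in WT (SE 0.19, adjusted p = 0.0182). The WT call ended without WT luminal replicate 3 (0.54, adjusted p = 0.0646), WT basal replicate 2 (0.58, adjusted p = 0.0571) or WT basal replicate 3 (0.57, adjusted p = 0.0563), with only the groups compared (0.62, adjusted p = 0.0707) and without the filter on low counts (0.67, adjusted p = 0.0711).

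Traf3 (chromosome 12, 111166370 to 111267153, plus strand) was the most even of the 10 genes across groups. It stood at 50.4, 51.8 and 84.1 CPM in MMTVRANK luminal libraries, against 54, 54.4 and 60 CPM in WT luminal libraries. Its basal levels were 47, 47.9 and 57.8 CPM in MMTVRANK libraries, against 55.2, 48.5 and 60.4 CPM in WT libraries. All 4 groups overlapped, apart from the high value of MMTVRANK luminal replicate 3. Luminal over basal, the log2 difference was 0.29 in MMTVRANK (SE 0.20, adjusted p = 0.302) and 0.04 in WT (SE 0.20, adjusted p = 0.905), and the WT value changed sign with DESeq2 size factors (−0.01). Between genotypes it was 0.15 in luminal cells (SE 0.20, adjusted p = 0.89) and −0.10 in basal cells (SE 0.20, adjusted p = 1).

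Map3k14 (chromosome 11, 103219762 to 103267472, minus strand) encodes NIK, the kinase that TRAF3 restrains. It stood at 25.1, 38.3 and 65 CPM in MMTVRANK luminal libraries, against 31.7, 61.4 and 62.4 CPM in WT luminal libraries. In the basal population it stood at 49.2, 59.9 and 67.8 CPM in MMTVRANK libraries, against 73.3, 49.7 and 111 CPM in WT libraries. All groups overlapped, and none of the differences passed: −0.28 for genotype in luminal cells (SE 0.38), −0.41 in basal cells (SE 0.38), and −0.46 and −0.59 for luminal over basal in MMTVRANK and WT (SE 0.38 each). Adjusted p lay between 0.251 and 1. Its exons share 135 bases with the gene model RP23-341C5.6 on the same strand.

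Nfatc1 (chromosome 18, 80606205 to 80713071, minus strand) stood at 16.3, 30.1 and 35 CPM in MMTVRANK luminal libraries, against 16.5, 34.3 and 29.2 CPM in WT luminal libraries. Basal cells had 41.3, 101 and 67.2 CPM in MMTVRANK libraries, against 63.9, 145 and 81.5 CPM in WT libraries. The genotypes overlapped in both populations, while each basal library lay above each luminal one. Nfatc1 was lower in luminal than in basal cells by a log2 difference of −1.36 in MMTVRANK (SE 0.42, adjusted p = 0.0279) and −1.86 in WT (SE 0.43, adjusted p = 0.00539). The MMTVRANK call ended without luminal replicate 1 (−1.11, adjusted p = 0.0978) or 2 (−1.45, adjusted p = 0.062), or basal replicate 2 (−1, adjusted p = 0.121) or 3 (−1.39, adjusted p = 0.0588) of that genotype. The genotype values were 0.03 in luminal cells (SE 0.42, adjusted p = 1), which changed sign with DESeq2 size factors (−0.03), and −0.47 in basal cells (SE 0.42, adjusted p = 1).

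**Figure D4:**
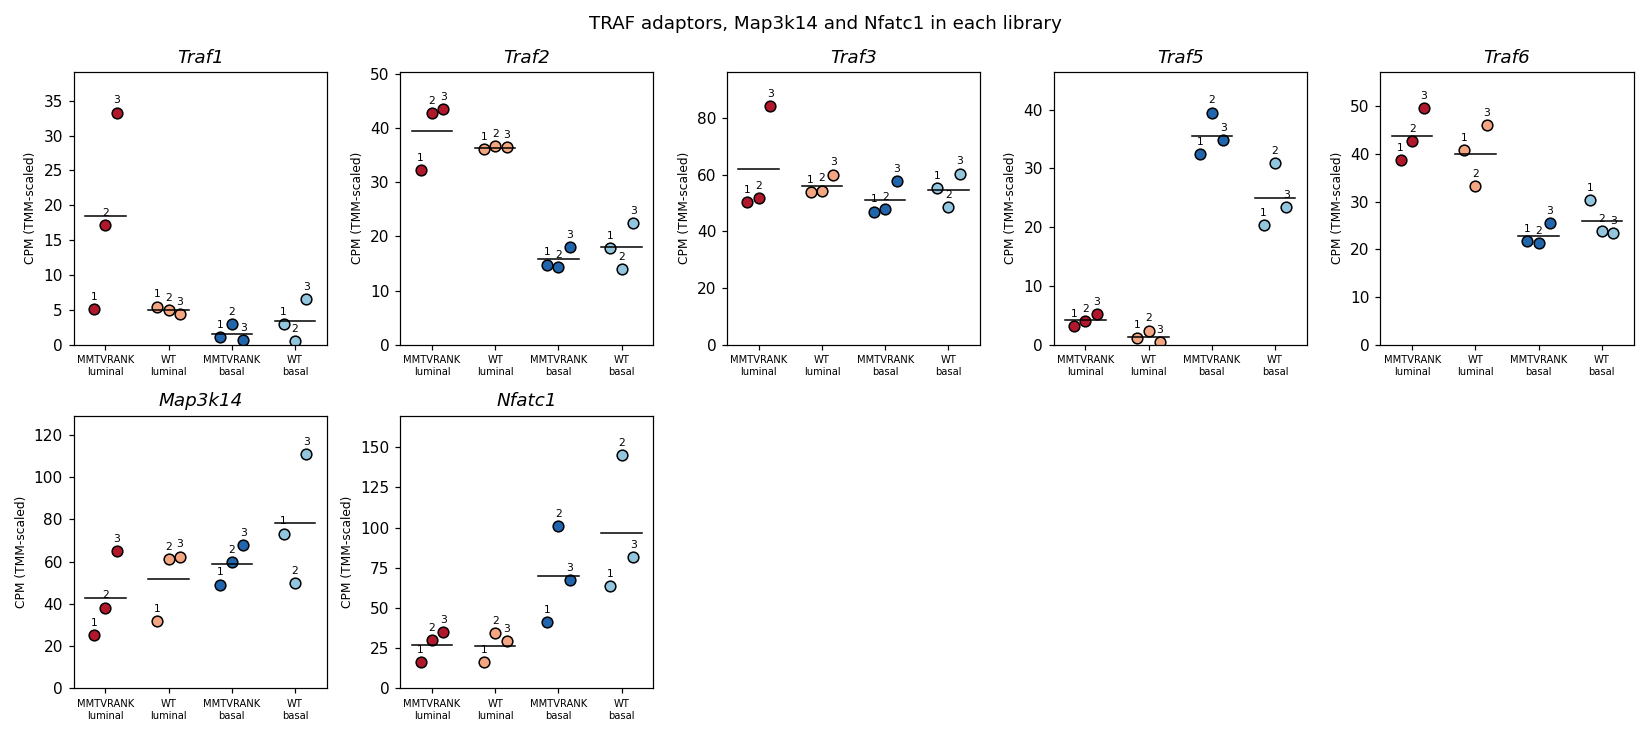
Level of 5 TRAF adaptor genes, Map3k14 and Nfatc1 in each of the 12 libraries, in TMM-scaled CPM on linear axes from 0; points are libraries with their replicate numbers and lines are group means. Traf2 and Traf6 lie higher in luminal libraries, Traf5 and Nfatc1 lie higher in basal libraries, and the 4 groups of Traf3 and of Map3k14 overlap.

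Set side by side by exon length, the genes can be ranked within a group in CPM per kb of exon. For the receptor this is the exon length of the native gene. The length of the transgene's transcripts is not known here, so its rank in the MMTVRANK groups holds for the native length only. In MMTVRANK luminal cells the receptor stood highest at 39.7 ± 13.7 CPM per kb (SD, n = 3), and the ligand, Traf3, Traf2, Map3k14 and Traf6 lay between 5.55 and 8.84 CPM per kb, within each other's spread. There Traf5 was the lowest at 0.908 ± 0.235 CPM per kb. In WT luminal cells the receptor stood at 5.96 ± 7.98 CPM per kb. It lay within the range of Map3k14 (7.91), the ligand (7.85 ± 13.2), Traf3 (7.63), Traf2 (7.14) and Traf6 (5.09). The ligand's mean came mostly from WT luminal replicate 3 (23.1 CPM per kb), with 0.368 and 0.0952 CPM per kb in replicates 1 and 2. In this group the decoy was the lowest at 0.00839 CPM per kb. In MMTVRANK basal cells the receptor stood at 42.4 ± 24.4 and the decoy at 18.2 ± 4.86 CPM per kb, followed by Nfatc1 (9.41), Map3k14 (9), Traf5 (7.79) and Traf3 (6.92). In WT basal cells the receptor (16.6 ± 8.61), the decoy (13.9 ± 3.83), Nfatc1 (13 ± 5.72) and Map3k14 (11.9 ± 4.76) did not differ beyond their spread. The ligand had 0.21 CPM per kb in MMTVRANK and 0.15 CPM per kb in WT basal cells, and there it and Traf1 (0.178 and 0.379 CPM per kb) were the lowest.

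**Figure D5:**
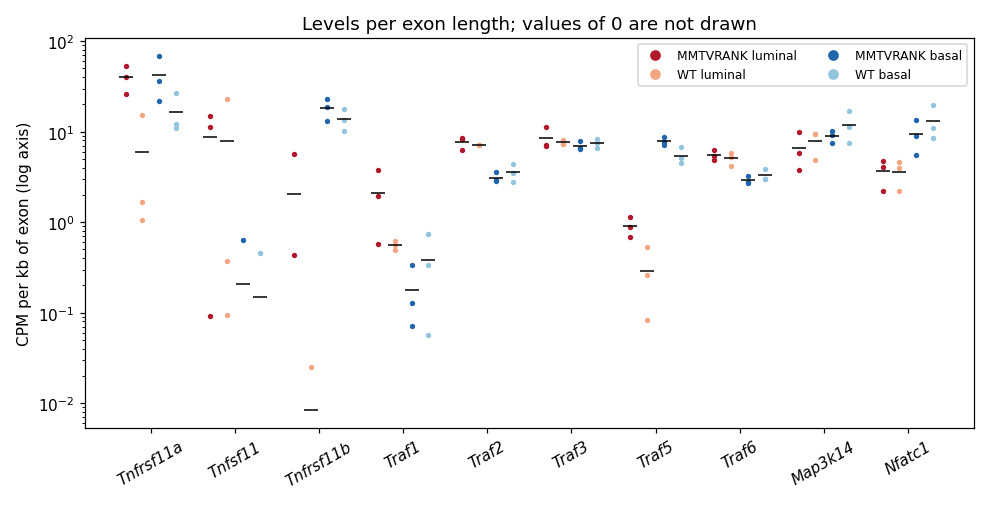
CPM per kb of exon of the 10 genes on a log axis; points are libraries, short lines are group means over 3 libraries, colours are the 4 groups, and libraries at 0 are not drawn. By the exon length of the native gene, the receptor is the highest gene in both MMTVRANK groups (39.7 CPM per kb luminal, 42.4 CPM per kb basal). The decoy and the ligand span the widest range between groups.

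Further components of the Rank pathway were read from a list of 34 kinases, adaptors and NF-kB genes, all of them tested. In luminal cells 1 of the 34 passed for genotype, where 0.252% of all genes tested did. It was Map2k6, which encodes a kinase that activates p38. Map2k6 stood at 12.6, 8.18 and 11.5 CPM in MMTVRANK libraries, against 2.47, 3.12 and 3.62 CPM in WT libraries. Its log2 fold change was 1.81 (SE 0.29, adjusted p = 0.0387), with no overlap between the genotypes, which held for 16.9% of all genes tested. The call ended in 9 of the 12 fits that left out 1 library, where adjusted p reached 0.127 (without WT luminal replicate 1) while the value stayed between 1.64 and 1.93 in all 12. It also ended with limma-voom (adjusted p = 0.102), with only the groups compared (adjusted p = 0.105) and without both WT replicate 2 libraries (adjusted p = 0.0706). Map2k6 was lower in luminal than in basal cells in WT (−2.31), and in the same luminal libraries the basal markers had a median of 1.14 and the luminal markers one of −0.55. Their part in the difference of Map2k6 was not tested. The list's median was 0.04, against 0.03 over all genes tested. In basal cells 0 of the 34 passed, and the smallest p belonged to Nfkbia, the gene of the NF-kB inhibitor IkB alpha, at −0.79 (SE 0.24, adjusted p = 0.688), and Ikbkg, which encodes the IKK subunit NEMO, at 0.61 (SE 0.21, adjusted p = 0.786). For the difference of effects 0 of the 34 passed, with Map2k6 at 1.29 (SE 0.40, adjusted p = 0.484) and Ikbkg at −0.90 (SE 0.30, adjusted p = 0.525).

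Between populations, 7 of the 34 were higher and 6 lower in luminal cells in MMTVRANK, and 4 were higher and 7 lower in WT. These shares lie near those of all genes tested, 33.2% of which were called in MMTVRANK and 38.1% in WT. Lgr4, a receptor that also binds Rankl, stood at 22.2, 18.7 and 26.3 CPM in MMTVRANK luminal libraries, against 258, 192 and 235 CPM in MMTVRANK basal libraries, a log2 difference of −3.35 (SE 0.19, adjusted p = 2.44e-07). In WT cells the difference was −2.84 (SE 0.19, adjusted p = 7.22e-07). Gab2, an adaptor that binds Rank, was higher in luminal cells by 2.90 in MMTVRANK (SE 0.32) and 2.17 in WT (SE 0.31). In MMTVRANK the kinase gene Src was lower in luminal cells (−1.08) and Nfkbia higher (2.03), and in WT Ikbkg was higher in luminal cells (2.02) and Map2k6 lower (−2.31).

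Among 10 calcineurin and NFAT genes, which act with or beside Nfatc1, 0 passed for genotype in either population. The smallest p were those of Ppp3ca (−0.44) and Ppp3cc (−0.39) in luminal cells and of Ppp3cb (0.28) and Nfatc4 (−0.66) in basal cells. Between populations 3 were lower in luminal cells in MMTVRANK: Nfatc4 (−3.96, adjusted p = 0.000571), Nfat5 (−0.82, adjusted p = 0.00391) and Dyrk1a (−0.60, adjusted p = 0.00545), where 17% of all genes tested were lower. In WT 2 were lower, Nfatc4 (−4.92, adjusted p = 0.000148) and Nfat5 (−0.70, adjusted p = 0.00848), where 20% of all genes tested were lower. The WT call of Nfat5 ended without both WT replicate 2 libraries (−0.65, adjusted p = 0.0591). None of the 10 was higher in luminal cells in either genotype.

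Of 10 osteoclast genes known as NFATc1 targets or partners in bone, 5 had counts enough to be tested, and 0 passed for genotype in either population. Itgb3 had −1.30 (SE 0.54, adjusted p = 0.36) and Car2 1.42 (SE 0.90, adjusted p = 0.627) in luminal cells, and Ocstamp had 2.93 (SE 1.36, adjusted p = 0.901) and Ctsk −1.67 (SE 1.10, adjusted p = 0.977) in basal cells. Atp6v0d2 had no count in any of the 12 libraries. Itgb3, the integrin beta3 gene, had a log2 difference, luminal over basal, of −4.03 in MMTVRANK and −2.46 in WT, and Acp5, the gene of tartrate-resistant acid phosphatase, had −1.65 in MMTVRANK and −1.51 in WT, all past the threshold, as were 33.2% (MMTVRANK) and 38.1% (WT) of all genes tested. Of the 5 tested, 1 was higher and 2 lower in luminal cells in MMTVRANK, and 2 were higher and 3 lower in WT. Car2 was called higher in luminal cells in both genotypes, by 4.14 in MMTVRANK. In WT, Ctsk was lower in luminal cells (−4.01) and Ocstamp, at 0.851 CPM or less in every WT library, higher (4.06). Without WT basal replicate 1, which also had the highest fibroblast marker sum, Ctsk had −1.89 (adjusted p = 0.212), and its call also ended without WT luminal replicate 1 (adjusted p = 0.054) or 2 (adjusted p = 0.0694). That of Ocstamp ended in 6 of the 12 fits that left out 1 library, at adjusted p between 0.0513 and 0.0956. With limma-voom both calls ended (adjusted p = 0.0507 for Ctsk and 0.0583 for Ocstamp), as they did without both WT replicate 2 libraries (adjusted p = 0.051 for Ctsk and 0.171 for Ocstamp). The call of Ctsk also ended with only the groups compared (adjusted p = 0.0627), and that of Ocstamp without the filter on low counts (adjusted p = 0.103).

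Markers of other cells that could enter the sort gave these sums. Across 18 leukocyte markers, MMTVRANK luminal libraries ranged from 5.11 to 355 CPM and WT luminal libraries from 6.81 to 31.3 CPM, while MMTVRANK basal libraries ranged from 16.7 to 177 CPM and WT basal libraries from 14.4 to 41.3 CPM. The highest value in each MMTVRANK population was that of replicate 3. Over 8 fibroblast markers the ranges were 79 to 236 CPM in MMTVRANK luminal, 38.1 to 137 CPM in WT luminal, 578 to 738 CPM in MMTVRANK basal and 285 to 2940 CPM in WT basal libraries, with WT basal replicate 1 the highest. Endothelial sums (8 markers) lay between 96.3 and 347 CPM in all libraries, pericyte sums (5 markers) between 41.7 and 245 CPM, and adipocyte sums (5 markers) between 0.851 and 197 CPM. Pericyte sums were higher in luminal libraries (168 CPM or more) than in basal ones (116 CPM or less). Yet 1 of the 5 pericyte markers, and 1 of the 8 endothelial markers, had a positive log2 difference, luminal over basal, in each genotype. Such a sum can thus follow 1 marker and is no measure of these cells. None of these 5 lists had a gene that passed for genotype. In luminal cells the log2 fold changes of the markers tested were nonetheless mostly positive: 13 of 14 leukocyte markers (median 3.01; 4 of the 18 were not tested), 4 of 5 pericyte markers (1.48), 6 of 8 fibroblast markers (1.08), 6 of 8 endothelial markers (0.66) and both adipocyte markers tested (2.28), against 0.03 over all genes tested. In basal cells the medians were −1.74 for fibroblast (2 of 8 positive), −0.85 for pericyte (0 of 5), −0.22 for endothelial (1 of 8), 0.74 for leukocyte (11 of 14) and 0.55 for adipocyte markers (1 of 2), against 0.00407 over all genes tested. Their part in the results was not tested.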

How the data were processed

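The authors deposited a table of raw counts, whole reads per gene symbol, made with featureCounts 1.5.2 on GENCODE M17, per the file headers, where no strand option is set in the command. Reads were aligned with STAR 2.6.1b to GRCm38.p6, per the submitters' processing notes. RNA was prepared with a stranded low-input total RNA kit, per the labels' protocols. The table's column of exon length gave CPM per kb.

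Counts of all 12 libraries were kept by filterByExpr (count minimum of 10 by group, 18236 genes), scaled by TMM and fitted in 1 edgeR 4.0.16 quasi-likelihood model of 4 title groups with robust spread in R 4.3.3. The biological coefficient of variation was 0.45. Unless noted, an adjusted p comes from the quasi-likelihood test of edgeR, adjusted after Benjamini-Hochberg over all genes tested, with a threshold of 0.05, and not from DESeq2 1.42.0 or limma-voom (limma 3.58.1). An SE was taken as the size of a log2 fold change divided by the root of its F statistic. Scripts were tested on simulated data. No pair of libraries in a group was a duplicate (chi-square over its degrees of freedom at least 28.6).

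The 10 genes were named whatever their values; of each further list, up to 4 genes past the threshold with the smallest p were named, or else the 2 with the smallest p, and for likeness the 3 nearest genes with an average log2 CPM of 2 or more. The genes, lists and markers were chosen with earlier results of these data known. Lists were described by counts and medians only. Where a level is named beside a result (Pgr, Prlr, E2f7, Troap, Espl1, Camk4), it is that of a gene named by this rule.

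The groups have the same replicate numbers, whose meaning is not in the labels. Deviations of same-numbered libraries from their group means, over 10082 genes, correlated for numbers 1, 2 and 3 at 0.493, 0.133 and 0.383 between luminal genotypes, 0.254, 0.15 and 0.312 between WT populations, and 0.266, 0.108 and 0.192 between MMTVRANK populations. Each of these lay above 0.1, but correlations of differently numbered libraries were not computed. Whether those libraries are paired by number is thus undecided. The main fit did not treat them as paired, so its p-values take no account of pairing, and the replicate block was run as an alternative. Between basal genotypes the correlations were 0.374, −0.0693 and 0.0729, so there the libraries may share only a number. Alternatives were DESeq2 size factors (RLE), no filter, DESeq2, limma-voom, the replicate number as a block, only the groups compared, each library left out, both WT replicate 2 libraries left out, and their populations taken from the cell subtype label.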

Additional observations from a re-analysis of the deposited data

How the results depend on the processing

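Over 988 refits of the 10 genes in 5 comparisons, 894 values kept their direction and their side of the threshold. For the exceptions below the cause was not tested, unless one is given. For genotype in luminal cells, 46 genes were called, against 1353 without the filter on low counts, 800 with DESeq2, 29 with limma-voom, 103 with the replicate block, 7 with only the groups compared, 81 without both WT replicate 2 libraries and 0 with populations from the cell subtype label. Of the 10 genes 0 were called, against 4 without the filter, 2 with DESeq2 and 1 without both WT replicate 2 libraries (Tnfrsf11a, in which those libraries were the highest of WT). TMM scaling gave 17 genes up and 29 down, and DESeq2 size factors 15 up and 41 down. For genotype in basal cells, 1 gene was called, against 349, 56, 0, 0, 4 and 0 without the filter, with DESeq2, with limma-voom, with only the groups compared, without both WT replicate 2 libraries and with the subtype label; 1 of the 10 was called without the filter. The difference of the genotype effects had 1 gene, against 776 without the filter (3 of the 10 genes), 130 with DESeq2, 0 with limma-voom, with the block or with the subtype label, and 3 without both WT replicate 2 libraries. Without the filter the fit gave all 37789 genes an infinite prior degree of freedom, that is 1 shared trend of spread with none of a gene's own, against a median of 4.41 with it. Luminal against basal called 6049 genes in MMTVRANK and 6940 in WT, against 3 and 0 with the subtype label, which puts WT libraries of both populations into 1 group, and 0 of the 10 genes in either. The replicate block changed no call of the 10 genes.

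With 1 library left out at a time, the genes called ranged from 3 to 93 (luminal genotype; 0 to 1 of the 10), 0 to 8 (basal genotype; 0 of the 10), 4612 to 6415 (MMTVRANK populations; 4 to 6 of the 10), 5776 to 6898 (WT populations; 4 to 6 of the 10) and 0 to 7 (difference of effects; 0 of the 10). Values that changed sign at least once, all uncalled, ranged as follows. Tnfrsf11a ran from −0.414 to 0.456 between MMTVRANK populations. Tnfsf11 ran from −0.478 to 5.18 (luminal genotype), −5.33 to 5.75 (basal genotype) and −5.57 to 5.5 (difference of effects). Traf3 ran from −0.173 to 0.232 (luminal genotype), −0.035 to 0.12 (WT populations) and −0.0327 to 0.372 (difference of effects). Luminal genotype values of Traf6 ran from −0.0154 to 0.185 and of Nfatc1 from −0.233 to 0.249, and Map3k14 ran from −0.301 to 0.398 for the difference of effects.

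Other settings that turned a sign were these. Without both WT replicate 2 libraries, Tnfsf11 had −0.405 for luminal genotype and Traf3 −0.0114 between WT populations. Tnfsf11 had −0.146 (basal genotype) and 0.486 (difference of effects) with the replicate block, and 1.3 (difference of effects) with limma-voom. Traf3 between WT populations had −0.00507 with DESeq2 size factors and −0.00486 with DESeq2, and Nfatc1 had −0.0301 for luminal genotype with each. With the subtype label, luminal genotype values were −1.55 (Tnfrsf11b), −1.38 (Traf5) and −1.23 (Nfatc1), and that of Nfatc1 in basal cells was 0.223. WT population values were then −0.484 (Traf1), −0.0655 (Traf3) and 0.0836 (Nfatc1), and differences of effects −2.75 (Tnfrsf11b), −2.59 (Traf5) and −1.45 (Nfatc1). Tnfrsf11b in luminal and Tnfsf11 in basal cells could not be fitted with only the groups compared, since the filter removed them. Depth limits Tnfsf11 and Tnfrsf11b in libraries with 3 counts or fewer.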
